A study of Mus musculus with 12 samples.

Results

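The Jak kinases Jak1, Jak2, Jak3 and Tyk2, the transcription factors Stat4, Stat5a and Stat6, and the feedback genes Socs1, Socs2 and Cish were taken by gene symbol from a table of rectal RNA levels. All 10 were present among the 17734 genes of the table, and all 10 passed the filter on low values that left 15315 genes for testing. A cytokine receptor carries Jak kinases on its inner side, which phosphorylate Stat proteins once the cytokine binds, and the Stat proteins then enter the nucleus and switch on target genes. Among those targets are the Socs genes and Cish, whose proteins bind the receptor or the kinase and dampen the signal. In the gut, receptors of this kind respond to interleukins and interferons in epithelial, stromal and immune cells.

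RNA came from 12 male wild-type C57BL/6 mice aged 8 to 10 weeks, with 3 mice in each of 4 groups, and no group carries a transgene or a deletion. Normal mice drank water, and normal mice receiving BBR drank water and were given berberine (BBR), a plant alkaloid, by gavage at 100 mg/kg. Colitis mice drank 2.5% dextran sulfate sodium (DSS), a polymer that injures the bowel lining, for 7 days, and colitis mice receiving BBR had both agents. The labels give 6 days of BBR, where the methods describe a daily dose through all 7 days of DSS, and call the tissue colorectum, while the study's methods call it rectum. DSS injures wild-type bowel chemically over days, so the samples show an acute injury and no other form of colitis.

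Values were read as FPKM, which are scaled for transcript length and library size, so that levels of different genes can be set side by side. No source names the unit, which could also be TPM. The epithelial markers Epcam, Krt8, Krt19 and Krt20 had mean levels of 986, 4090, 3870 and 638 FPKM in normal mice, so the markers of bowel epithelium were abundant. The mouse numbered 4 in each group stood apart: these 4 mice had column totals of 482194 to 504337, against 696286 to 765876 in the other 8 mice, and 872 to 1086 genes at 0, against 1332 to 1926. If the unit is FPKM, the spacing of low values in 926 single-transcript genes put the libraries at an estimated 17200000 to 20000000 reads for the mice numbered 4 and at 14600000 to 15500000 for the rest. The same spacing came out best with 30 to 60 bases taken off each transcript in mice numbered 4 and with 230 to 290 bases in the rest. For genes as long as the members this difference amounts to a factor of 1.05 to 1.12 in FPKM. Each group holds exactly 1 such mouse, and the values of the mice numbered 1 to 3 and of the mice numbered 4 are given separately where they part.

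In normal mice the members spanned about 2 orders of magnitude. Jak1, which serves most cytokine receptors, stood highest with 37.1 ± 7.29 FPKM (SD, n = 3), followed by Jak2, the kinase of the growth hormone, erythropoietin and interferon gamma receptors, with 27.7 ± 4.98 FPKM. Stat6, which responds to interleukin 4 and interleukin 13, had 27.5 ± 1.33 FPKM, and the ranges of Jak1, Jak2 and Stat6 overlapped from one to the next. Socs2, known as the brake on growth hormone signalling, followed with 17.1 ± 2.74 FPKM and overlapped with neither neighbour in this order. Cish, a target of Stat5, had 10.1 ± 2.17 FPKM and Tyk2, a kinase of interferon and interleukin 12 receptors, had 9.84 ± 0.765 FPKM, with overlapping ranges. Jak3, the kinase paired with the common gamma chain of lymphocyte cytokine receptors, Socs1, an inhibitor of Jak kinases, and Stat5a, which responds to growth hormone, prolactin and interleukin 2, lay at 3.15 ± 0.937, 2.82 ± 0.319 and 2.19 ± 0.524 FPKM, each overlapping with the next. Stat4, the transcription factor of interleukin 12 signalling in T and natural killer cells, was lowest with 0.347 ± 0.0404 FPKM, below every value of Stat5a.

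Spread over the 12 mice split the members differently from level. Stat6, Jak2, Jak1 and Tyk2 varied least, with coefficients of variation of 11.4%, 14.7%, 17.9% and 20.9%. Socs1 and Cish varied most, with 63.5% and 57.0%, and the highest mouse exceeded the lowest 5.55-fold for Socs1 and 8.91-fold for Cish. Precision also differed between members. From this spacing, Jak1 rested on an estimated 2160 to 3680 reads a mouse, Socs1 on 95.4 to 778, Cish on 56.9 to 498 and Stat4 on only 10.4 to 42.2 reads. Because counting error alone is large at such read numbers, Stat4 values are the least certain of the 10.

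**Figure D1:**
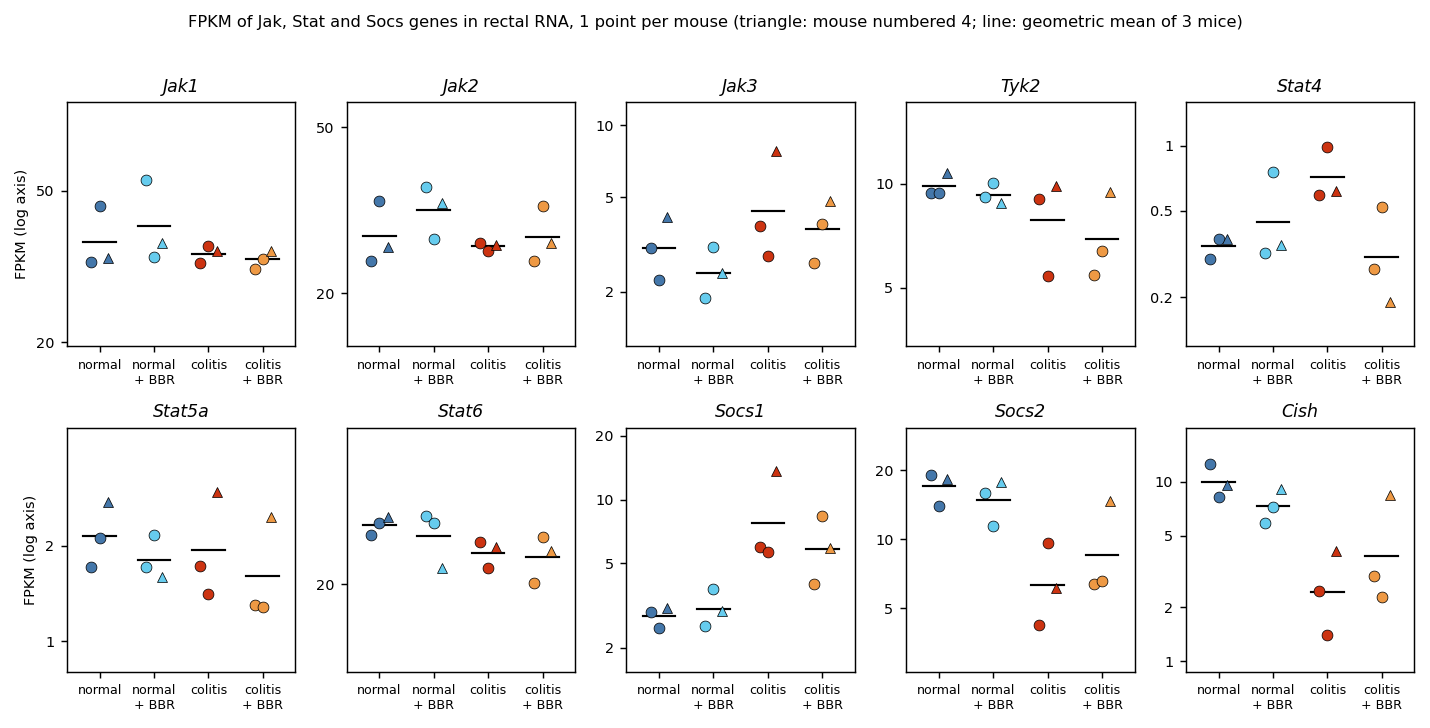
FPKM of each member on a log axis, with 1 point per mouse, a triangle for the mouse numbered 4 and a line for the geometric mean of 3 mice. Socs1 lies higher and Socs2 and Cish lower in colitis mice than in normal mice without overlap, while the points of Jak1 and Stat5a overlap between all 4 groups.

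The feedback genes differed most in colitis against normal mice, and the bases before the start sites of Socs1 and Cish are given because these genes differed in opposite directions in colitis mice. Both windows hold 250 bases up to the start site, read 5′ to 3′ on the strand of the gene from RefSeq on GRCm38.p6, a later build than the mm9 of the submitters' processing notes. The Socs1 window lies at chr16:10785537-10785786 on the minus strand and the Cish window at chr9:107296409-107296658 on the plus strand. Capitals mark overlapping matches to GAAANNGAAA, a form of the element that interferon regulatory factors are known to bind.
Socs1: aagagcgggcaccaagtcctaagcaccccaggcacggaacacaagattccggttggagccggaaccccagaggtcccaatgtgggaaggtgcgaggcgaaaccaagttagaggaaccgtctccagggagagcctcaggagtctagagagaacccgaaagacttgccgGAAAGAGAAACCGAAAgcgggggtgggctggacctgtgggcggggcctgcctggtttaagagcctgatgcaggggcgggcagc
Cish: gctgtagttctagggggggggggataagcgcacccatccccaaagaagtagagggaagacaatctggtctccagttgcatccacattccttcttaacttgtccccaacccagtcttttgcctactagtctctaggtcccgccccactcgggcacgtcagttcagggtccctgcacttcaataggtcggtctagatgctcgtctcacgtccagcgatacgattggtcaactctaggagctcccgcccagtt

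Promoters of 9 of the 10 members were matched, in 11 windows, and Socs2 was not among them. The word TTCNNNGAA, the core of the sites bound by most Stat dimers, is its own reverse complement and occurred in 0 of the 11 windows, against 7.02% of 32851 mouse promoters. A spacing of 4 bases, TTCNNNNGAA, which Stat6 is known to favour, is also its own reverse complement and occurred in 0 of the 11, against 5.85%. GAAANNGAAA, searched on both strands and chosen after the sequences were seen, occurred in 2 of the 11 windows, that of Socs1 and the second of Stat4, against 2.98% of all promoters. In Socs1 it matched 2 times, with first bases 83 and 77 bases before the start site, which 0.18% of promoters share. A match says only that these letters stand in this window.

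The comparison of colitis mice with normal mice asks what DSS did to the pathway. The feedback genes moved apart in the point estimates, Socs1 higher and Socs2 and Cish lower, but none passed the adjusted limit with the values as deposited. In limma, 1.08% of the tested genes had an adjusted p under 0.05 and 0 of the 10 members did, and at an unadjusted p of at most 0.05 it was 21.4% of genes and 3 members. Of the 10 members, 5 did not overlap between the 3 colitis and the 3 normal mice, against 29.3% of tested genes. The median log2 fold change was -0.12 over the 10 members and -0.32 over all tested genes, so that a gene at 0 stood above the middle of the table. In bulk tissue such as this, fewer cells of a type and less RNA per cell cannot be told apart.

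Socs1, whose protein blocks Jak kinases directly, had 2.95, 2.46 and 3.06 FPKM in normal mice 1, 3 and 4 and 6, 5.64 and 13.66 FPKM in colitis mice 1, 2 and 4. Every colitis mouse lay above every normal mouse, and colitis mouse 4 held more than the other colitis mice. The log2 fold change was 1.43 (SE 0.367, 2.69-fold), with a limma adjusted p of 0.0753 and an exact permutation p of 0.1, the smallest that 3 mice against 3 allow. Among the mice numbered 1 to 3 the log2 difference was 1.08, and between the mice numbered 4 it was 2.12.

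Socs2 read 19.13, 14 and 18.25 FPKM in normal mice and 4.24, 9.67 and 6.15 FPKM in colitis mice. All colitis mice were below all normal mice. Its log2 fold change was -1.41 (SE 0.365, 2.66-fold lower), with a limma adjusted p of 0.0766, and -1.34 and -1.55 in the mice numbered 1 to 3 and the mice numbered 4. Of its 50-base words, 18.4% also occur in the transcripts of Gm8000 and Gm9847, so a part of its reads could have been counted elsewhere.

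Cish, the cytokine-inducible inhibitor of Stat5 signalling, gave the largest difference of the 10. Normal mice held 12.48, 8.21 and 9.63 FPKM and colitis mice 2.47, 1.4 and 4.12 FPKM, again with no overlap. On the log2 scale the difference was -1.99 (SE 0.475, 3.97-fold lower), with a limma adjusted p of 0.0652, and only 2.0% of tested genes had a lower value. It was -2.38 in the mice numbered 1 to 3 and -1.20 between the mice numbered 4. Exons of Gm17040 and Gm17041 lie on the opposite strand of Cish, and the sources used here do not say that counting used strand.

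Whether these 3 differences passed the limit depended on the fit. With a block for the mice numbered 4, limma gave adjusted p-values of 0.0325 for Socs1, 0.0313 for Socs2 and 0.0163 for Cish. In that fit 1412 of the 15315 tested genes passed, against 165 with the values as deposited. With quantile normalization, which moved the median of all genes from -0.32 to -0.05, Socs1 was at 1.85 (adjusted p 0.0225), Cish at -1.71 (adjusted p 0.0473) and Socs2 at -1.14 (adjusted p 0.101). The same scaling turned the unadjusted calls over all genes from 852 higher and 2428 lower to 1488 higher and 1521 lower, and 258 genes passed the adjusted limit. Without the 4 mice numbered 4, Cish alone passed, at -2.38 (adjusted p 0.0319), and so it did without colitis mouse 4. Over all genes 804 passed in the former fit and 211 in the latter. The direction of all 3 genes was the same in each of the 24 alternatives that gave a value, from 1.02 to 1.85 for Socs1, from -1.71 to -1.07 for Socs2 and from -2.38 to -1.61 for Cish. Many of these settings cannot change this fold change and say nothing about direction. They are the filter, the trend, the groups compared alone, the block for the mice numbered 4, and leaving out a mouse receiving BBR.

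**Figure D2:**
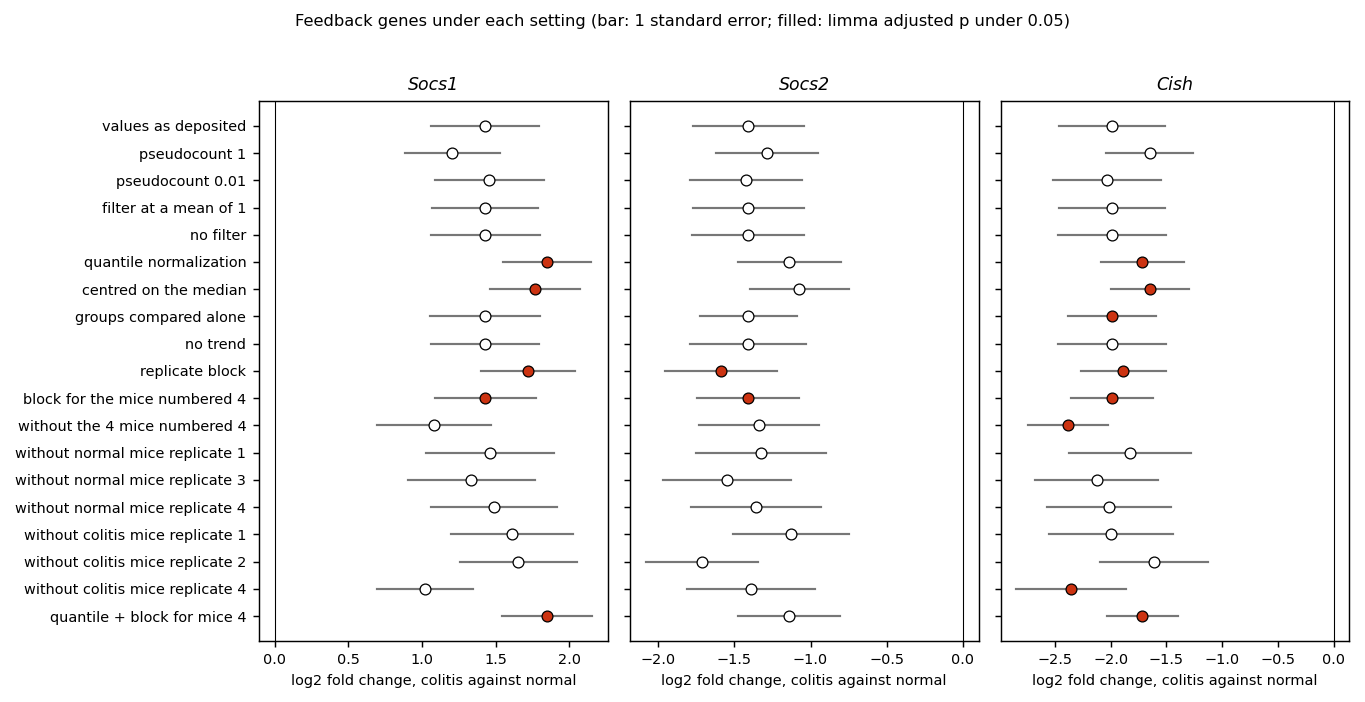
log2 fold change of Socs1, Socs2 and Cish in colitis against normal mice (horizontal axis) under each setting that changes the fit or leaves out mice of these 2 groups or of all groups, with bars of 1 standard error. Filled points have a limma adjusted p under 0.05, and every point lies on the same side of 0 as the value from the data as deposited.

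The other members differed less, and in the data as deposited none passed the limit in limma, adjusted or not. Stat4 had 0.3, 0.37 and 0.37 FPKM in normal mice and 0.59, 0.99 and 0.62 FPKM in colitis mice, which did not overlap, with a log2 fold change of 0.87 (SE 0.407, adjusted p 0.239 in limma). With quantile normalization and a block for the mice numbered 4 together, Stat4 passed, at 1.28 (SE 0.296, adjusted p 0.0295 in limma), in a fit where 1303 tested genes passed. With either of them alone Stat4 did not pass (adjusted p 0.148 and 0.135). Of the 50-base words of Stat4, 28.6% also belong to the overlapping gene Gm28177. Stat6 read 26.02, 27.79 and 28.63 FPKM in normal mice and 25.07, 21.79 and 24.44 FPKM in colitis mice, also without overlap, but the log2 fold change was only -0.21 (SE 0.172, adjusted p 0.462 in limma) and became 0.13 when each mouse was centred on its median. Jak3 lay at 0.50 (SE 0.397), with colitis mouse 4 at 7.81 FPKM and the other colitis mice at 3.77 and 2.83 FPKM, within the normal range of 2.25 to 4.12 FPKM, and 8.94% of its 50-base words also belong to Insl3, whose exons overlap those of Jak3. Jak1, Jak2, Tyk2 and Stat5a were at -0.10, -0.08, -0.32 and -0.15, with 95% intervals from -0.55 to 0.35, from -0.49 to 0.34, from -0.90 to 0.26 and from -0.94 to 0.65. Centred on the median, these 4 were at 0.24, 0.26, 0.02 and 0.19, so their signs follow the scaling.

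Colitis mice receiving BBR against normal mice receiving BBR is the same contrast in mice that share no animal with the first. In limma 0.0392% of tested genes passed the adjusted limit and 0 members did, while 19.7% of genes and 1 member, Socs1, had an unadjusted p of at most 0.05. Normal mice receiving BBR had 2.52, 3.76 and 2.97 FPKM of Socs1, and colitis mice receiving BBR 4, 8.39 and 5.89 FPKM. These groups did not overlap, as was the case for 20.2% of tested genes, and the log2 fold change was 0.92 (SE 0.367, adjusted p 0.232 in limma).

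For Socs2 the values were 15.94, 11.47 and 17.79 FPKM in normal mice receiving BBR and 6.37, 6.61 and 14.74 FPKM in colitis mice receiving BBR. Cish read 5.91, 7.2 and 9.05 FPKM in the former and 2.99, 2.28 and 8.46 FPKM in the latter. In both genes colitis mouse 4 receiving BBR lay within the range of its controls while mice 2 and 3 lay below it. The log2 fold changes were -0.79 (SE 0.365, adjusted p 0.257 in limma) for Socs2 and -0.89 (SE 0.475, adjusted p 0.292) for Cish. Without colitis mouse 4 receiving BBR they were -1.18 and -1.44, both with an adjusted p of 0.0396 in limma. Leaving out this mouse let 2255 of the 15315 tested genes pass, against 6 with it. That same mouse had the highest sum of smooth muscle markers of its group, 3520 FPKM against 483 and 503 FPKM in the others, and the part of tissue composition in these values was not tested.

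An average of both colitis contrasts, 6 mice on DSS against 6 on water, was added after the data were seen. In limma 14.3% of tested genes passed the adjusted limit, and so did 3 of the 10 members. Socs1 rose by 1.17 (SE 0.26, 2.25-fold, adjusted p 0.0234 in limma), and its lowest value on DSS, 4 FPKM, exceeded its highest on water, 3.76 FPKM, as was the case in either direction for 5.78% of tested genes. Socs2 fell by 1.10 on the log2 scale (SE 0.258, adjusted p 0.0277 in limma) and Cish fell by 1.44 (SE 0.336, adjusted p 0.0275), each with overlap only through colitis mouse 4 receiving BBR. Socs2 no longer passed with quantile normalization (-0.78, adjusted p 0.0697 in limma) or with centring on the median (-0.71, adjusted p 0.0864), and Socs1 and Cish passed with both. Over all genes 1278 passed with the former scaling and 1025 with the latter. Exact two-sided permutation p-values of 6 mice against 6 were 0.00216 for Socs1, the smallest possible, 0.00649 for Socs2 and 0.00866 for Cish. Leaving out 1 mouse at a time, the adjusted limit was passed in 7 of 12 fits by Socs1 and in 3 of 12 by each of Socs2 and Cish, with adjusted p-values of at most 0.0704 in limma. Over all genes 319 to 5943 passed in these fits, against 2188 with all mice. Of the other 7 members, Jak3 was at 0.54 (adjusted p 0.166 in limma). It passed in 3 of 23 alternatives, among them quantile normalization (0.99, adjusted p 0.0168 in limma) and centring on the median (0.94, adjusted p 0.0232). Stat4 passed only with quantile normalization and the block for the mice numbered 4 (0.68, adjusted p 0.049 in limma). Tyk2 was at -0.37 (adjusted p 0.159 in limma) and passed in 1 fit, which left out 1 mouse (adjusted p 0.0483).

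**Figure D3:**
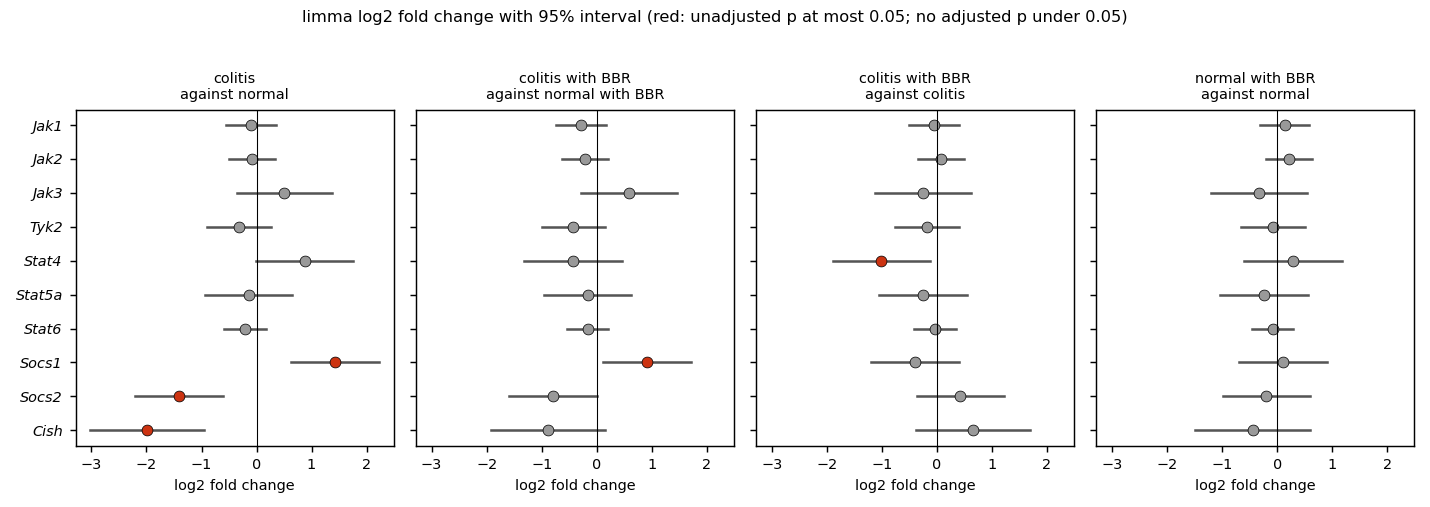
limma log2 fold change of each member (points) with its 95% interval (bars) in 4 comparisons of 3 mice against 3. Intervals that leave out 0 are those of Socs1, Socs2 and Cish in colitis against normal mice, Socs1 in colitis against normal mice receiving BBR, and Stat4 in colitis mice with against without BBR.

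Because Socs1 differed one way and Socs2 and Cish the other, their ratio within a mouse was taken, which multiplying all values of that mouse by 1 factor does not change. The ratios were chosen because of these differences, so they are given as a description with no test. The ratio of Socs1 to Cish was 0.236, 0.3 and 0.318 in normal mice and 0.426, 0.522 and 0.328 in normal mice receiving BBR. Colitis mice had 2.43, 4.03 and 3.32, and those receiving BBR 1.34, 3.68 and 0.696. Every mouse on DSS thus exceeded every mouse on water, colitis mouse 4 receiving BBR by the least. Over 6 mice against 6 the geometric means differed 6.38-fold. Between colitis mice with and without BBR the ratios overlapped, and normal mice receiving BBR lay 1.48-fold above normal mice, without overlap but by a narrow margin.

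The ratio of Socs1 to Socs2 behaved alike, with 0.154 to 0.176 in normal mice, 0.158 to 0.328 in normal mice receiving BBR, 0.583 to 2.22 in colitis mice and 0.4 to 1.27 in those that also received BBR. It differed 4.96-fold between mice on DSS and on water. Socs2 and Cish, the genes that were both lower, kept overlapping ratios to each other. The ratio of Socs2 to Cish differed 1.29-fold, and its widest value was 6.91 in colitis mouse 2.

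**Figure D4:**
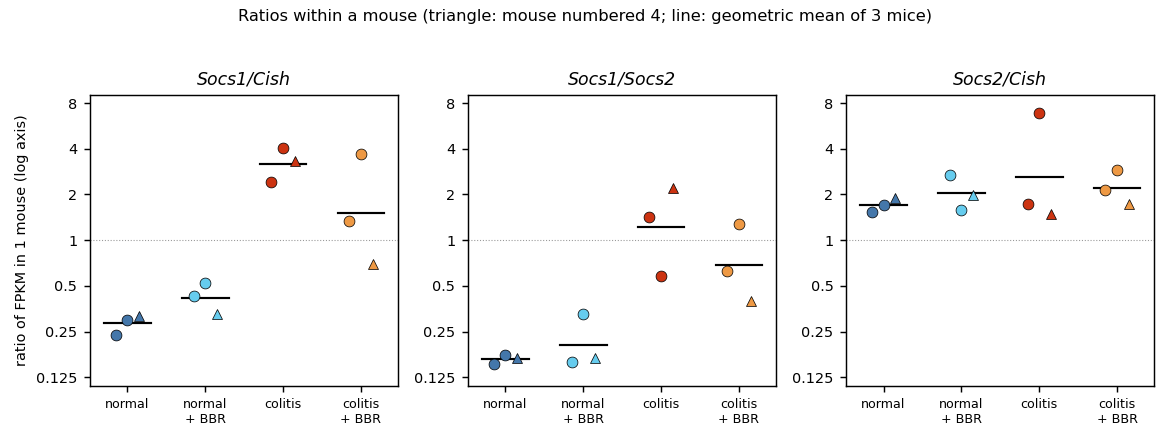
Ratios of FPKM within each mouse on a log axis, with a triangle for the mouse numbered 4 and a line for the geometric mean of 3 mice. Socs1/Cish lies below 0.53 in all mice on water and above 0.69 in all mice on DSS, and Socs2/Cish overlaps between the groups.

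Colitis mice receiving BBR were compared with colitis mice to ask what BBR did in the inflamed bowel. In limma 0% of tested genes passed the adjusted limit and 0 members did, while 6.39% of genes and 1 member, Stat4, had an unadjusted p of at most 0.05. Without colitis mouse 3 receiving BBR 58 tested genes passed the adjusted limit, and again 0 members. Stat4 had 0.59, 0.99 and 0.62 FPKM in colitis mice and 0.27, 0.52 and 0.19 FPKM in colitis mice receiving BBR. The groups did not overlap, as was the case for 7.08% of tested genes, and the log2 fold change was -1.01 (SE 0.407, unadjusted p 0.0295 and adjusted p 0.698 in limma). The colitis mice receiving BBR thereby stood at about the level of normal mice, 0.3 to 0.37 FPKM, on an estimated 10.4 to 21.6 reads each.

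T cell and macrophage markers had lower point estimates in the same comparison, with overlapping sums. Lower point estimates were also those of 9495 of the 15315 tested genes. The sum of 10 T cell markers was 6.74 to 12.3 FPKM in colitis mice and 2.58 to 8.13 FPKM in colitis mice receiving BBR, and all 9 that were tested had lower point estimates with BBR, 1 with an unadjusted p of at most 0.05 and 0 with an adjusted p under 0.05 in limma. The sum of 8 macrophage markers was 267 to 804 FPKM and 141 to 282 FPKM, and all 8 were lower in the point estimates, 5 of them at the unadjusted limit, which 6.39% of all genes met, and 0 at the adjusted limit in limma. Also lower were 7 of 8 granulocyte markers (list median -2.25), all 6 fibroblast markers (-1.05), 6 of 8 epithelial and 4 of 5 endothelial markers. B cell markers were split 3 and 3, and all 8 smooth muscle markers were higher. The part of any cell type in the Stat4 value was not tested.

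Socs1 was at -0.40 (SE 0.367) with BBR in colitis, Socs2 at 0.43 (SE 0.365) and Cish at 0.65 (SE 0.475), each with an adjusted p of 1.0 in limma. All 3 point estimates lean toward the level of normal mice, but those of Socs1 and Socs2 came largely from the mice numbered 4 and that of Cish depended on colitis mouse 4 receiving BBR. Between these mice the log2 differences were -1.20, 1.25 and 1.02, and among the mice numbered 1 to 3 they were -0.0042, 0.017 and 0.47, in the order Socs1, Socs2 and Cish. Without colitis mouse 4 receiving BBR, Cish was at 0.098, and with 1 mouse left out at a time it ran from 0.098 to 1.02. The 95% intervals from the fit over all mice ran from -1.21 to 0.40 for Socs1, from -0.37 to 1.22 for Socs2 and from -0.39 to 1.69 for Cish, so that a return by 1 log2 unit is within each of them. The Jak kinases were at -0.05 for Jak1, 0.07 for Jak2, -0.25 for Jak3 and -0.18 for Tyk2, and Stat5a and Stat6 at -0.26 and -0.04.

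BBR was also compared in mice without colitis. In limma 0% of genes and 0 members passed the adjusted limit, and 1.36% of genes and 0 members were within the unadjusted limit of 0.05. The member values ran from -0.45 (SE 0.475) for Cish to 0.29 (SE 0.407) for Stat4. Cish was lower in normal mice receiving BBR than in normal mice in the point estimate, with 5.91 to 9.05 FPKM against 8.21 to 12.48 FPKM, in overlapping ranges. Set side by side by mouse number, Cish with BBR was at 5.91 against 12.48, 7.2 against 8.21 and 9.05 against 9.63 FPKM. It was lower each time, as was Socs2, but these are different animals that the numbers are not known to pair. With the replicate number as a block the adjusted p of both genes was 1.0 in limma. The test of whether BBR acted differently in colitis and normal mice, the interaction, passed for 0% of genes and 0 members by adjusted p in limma, and Stat4 alone was within the unadjusted limit (-1.30, SE 0.575, p 0.0436), against 2.42% of all genes.

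Cytokines that feed the pathway were taken from a list of 35 ligands, of which 26 are in the table and 16 passed the filter. In colitis against normal mice 11 were higher and 5 lower in the point estimates, where 4018 of all tested genes were higher and 11293 lower. By adjusted p in limma 4 of the 16 rose and 2 fell. Those that rose were Il6, an inducer of the acute phase response, Il11, a stromal cytokine of the same family, Csf3, the growth factor of neutrophils, and Thpo, the growth factor of platelets. Il6 went from 0 to 0.08 FPKM in normal mice to 1.49 to 5.48 FPKM in colitis mice, and Csf3, listed at 0 in each of the normal mice, lay at 1.44 to 2.76 FPKM in colitis mice. Il15, which acts on lymphocytes through the common gamma chain and Jak3, fell from 18.4 ± 2.78 to 6.43 ± 0.466 FPKM (SD, n = 3 each, adjusted p 0.0276 in limma), and Ctf1, another cytokine of the Il6 family, fell by 1.84 (adjusted p 0.0312). Il15 was also lower in colitis mice receiving BBR than in normal mice receiving BBR, where it fell by 1.86 (adjusted p 0.0371 in limma). The most abundant ligands beside these included Il7, a lymphocyte survival factor, at 5.03 ± 1.73 FPKM in normal and 3.61 ± 0.14 FPKM in colitis mice. With BBR in colitis, 11 of the 16 had lower and 5 higher point estimates, with 0 passing the adjusted limit in limma and 6 an unadjusted p of at most 0.05, against 6.39% of all genes.

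Of 40 receptor chains 36 were tested, and in colitis against normal mice 21 had higher and 14 lower point estimates. Over all tested genes 4018 were higher and 11293 lower. Il4ra, the receptor chain upstream of Stat6, rose from 5.08 ± 0.439 to 24.8 ± 6.57 FPKM (n = 3 each, log2 fold change 2.23, adjusted p 0.0477 in limma), while Stat6 itself did not pass. Il5ra, the receptor of eosinophils, rose by 5.71 (SE 0.949, adjusted p 0.022 in limma) and ranged widely in colitis mice, from 3.84 to 31.82 FPKM. The most abundant chains lay close to 0, Ifngr1 at -0.01, Ifngr2 at 0.03, Il10rb at -0.11 and Il13ra1 at 0.28. With BBR in colitis 29 of the 36 chains had lower point estimates, where 9495 of all 15315 tested genes did. The list median was -0.54 against -0.09 for all genes, with 5 chains at an unadjusted p of at most 0.05, against 6.39% of all genes, and 0 at the adjusted limit in limma.

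The remaining Stat and Socs genes were 9, all tested, and 1 of them passed. Socs3, the feedback inhibitor of Il6-type receptors and a target of Stat3, rose from 3.45 ± 1.2 to 46.3 ± 12.4 FPKM (n = 3 each), a log2 fold change of 3.74 (SE 0.401, adjusted p 0.00325 in limma), and also passed between the groups receiving BBR, at 3.96 (adjusted p 0.00786). The point estimate of Socs1 thus had the sign of Socs3, and those of Socs2 and Cish the opposite one. Stat2 was at 0.77 (adjusted p 0.194 in limma) and Stat3 at 0.44 (adjusted p 0.255). Of the 50-base words of Stat5a, 15.8% also occur in Stat5b, so a part of the reads of either gene could have been counted for the other.

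Other brakes on the pathway, such as Pias proteins and phosphatases, numbered 12, and 0 passed the adjusted limit in colitis against normal mice in limma, with 3 at an unadjusted p of at most 0.05, against 21.4% of all genes. These 3, named because the count is small, were Usp18, a protease known to restrain interferon receptor signalling, at 2.33 (adjusted p 0.133 in limma), Pias2, a ligase that restrains Stat proteins, at -1.12 (adjusted p 0.191), and Cbl, a ubiquitin ligase, at -0.87 (adjusted p 0.169). The phosphatases Ptpn2 and Ptpn11, the most abundant of the list, were at 0.20 and -0.25. Of 19 Stat target genes 2 passed. Among them Gata3, the T helper 2 transcription factor, rose by 2.68 (adjusted p 0.0409 in limma) from a low level of 0.0533 ± 0.0231 FPKM (SD, n = 3). Irf1, an interferon-induced transcription factor, was at 0.30, and Mcl1, a survival factor and the most abundant of the list, at -0.86 (adjusted p 0.0853 in limma). The share of called genes in each list can be read against 1.08% of all genes, though the lists were drawn up with earlier results of these data known.

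**Figure D5:**
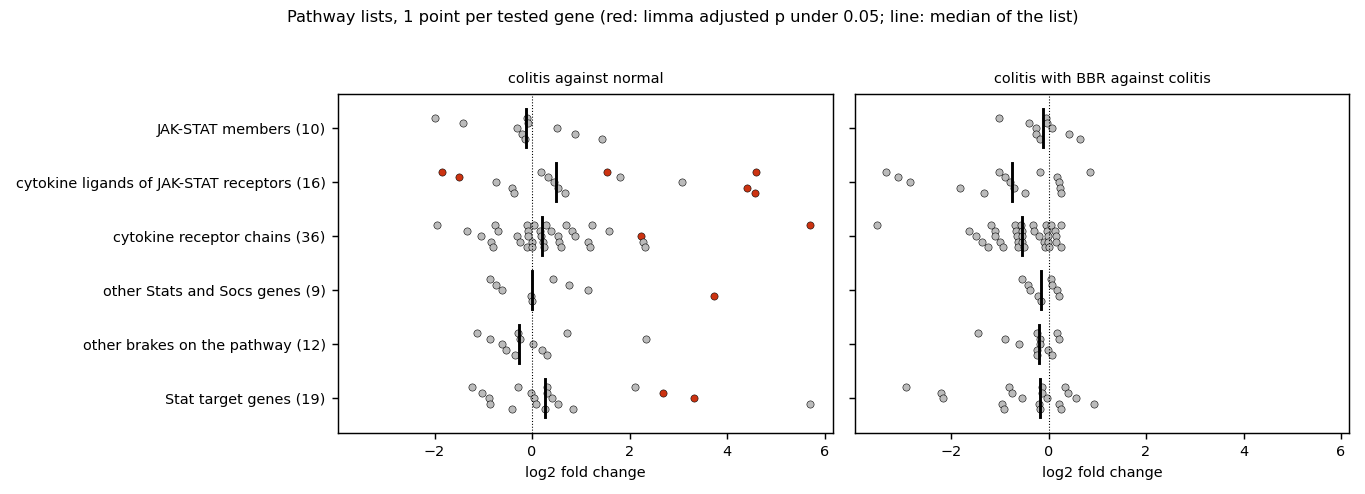
limma log2 fold change of each tested gene of the members and of 5 pathway lists (points), with the number of tested genes in brackets and a line at the median of each list. In colitis against normal mice red points are the genes past the adjusted limit, among them Socs3 but 0 of the 10 members. With BBR in colitis most ligands and receptor chains lie left of 0, as do 9495 of all 15315 tested genes, and no point is red.

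Sums of cell type markers are given here beside the feedback genes. In colitis against normal mice 1 of 8 granulocyte markers and 0 of 8 smooth muscle markers passed the adjusted limit in limma, with 7 and 8 of them at an unadjusted p of at most 0.05, against 21.4% of all genes, and 0 markers of the other cell types passed the adjusted limit. The sum of 8 smooth muscle markers was 1670 to 3140 FPKM in normal mice, 2340 to 4970 FPKM in normal mice receiving BBR, 73.4 to 674 FPKM in colitis mice and 483 to 3520 FPKM when these received BBR. That of 8 granulocyte markers was 262 to 708, 419 to 793, 603 to 4200 and 491 to 2950 FPKM in the same order. Nearly all of this sum was Ly6g, at 259.46 to 707.15 FPKM in normal mice and 416.93 to 792.79 FPKM in normal mice receiving BBR, where S100a8 and Ngp were at 0 and S100a9 was at most 0.45 FPKM in every mouse. In colitis mice S100a8 was at 24.9 to 336.29 FPKM and Ly6g at 556.95 to 3710.2 FPKM. Epithelial marker sums overlapped, with 8930 to 12700 FPKM in normal and 8550 to 12200 FPKM in colitis mice. Endothelial sums were 20.3 to 22.3 and 6.25 to 16.1 FPKM, fibroblast sums 259 to 444 and 177 to 696 FPKM, and B cell sums 4.47 to 22.9 and 2.78 to 9.4 FPKM in normal and colitis mice. T cell sums, the cells in which Jak3 and Stat4 are best known, were 5.85 to 7.84 FPKM in normal and 6.74 to 12.3 FPKM in colitis mice, and macrophage sums 160 to 207 and 267 to 804 FPKM. The part of these cell types in the differences of Socs1, Socs2 and Cish was not tested.

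Which genes varied most like each member was read from Pearson's r over the 12 mice on median-centred log2 values, among 11943 genes with a mean of at least 1 FPKM. These are descriptions, as the 12 points share the 4 groups and the split by mouse number. Socs1 was most like Slc5a9, a sugar transporter, Lbp, the lipopolysaccharide binding protein, and Socs3, with r of 0.947, 0.947 and 0.944. Cish was most like Pdzd7, Zfp704 and Tcea3 with r of 0.973, 0.955 and 0.952, and Socs2 most like Slc35e4, Krt17 and Ppp1r14a with r of 0.923, 0.921 and 0.92. Jak3 had Tbc1d10b, Pank2 and Socs1 as its nearest genes, the last with r of 0.909. The nearest to Stat4 were Bcl2a1d, Ly86 and Cd300c2, genes known from myeloid and other leukocytes, with r of 0.963, 0.948 and 0.945.

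For the members with narrow ranges the nearest genes were of many kinds. They were Cab39, Rab5a and Specc1l for Jak1, Sf3b1 and Jmjd1c for Jak2, Aldoc, Prkca and Plekha7 for Tyk2, Man2b1, Grin1os and Snd1 for Stat5a, and Traf2, Fig4 and Dhx8 for Stat6. Among the members themselves Jak1 and Jak2 ran closest together after Jak3 and Socs1, with r of 0.903, and Stat6 followed them with r of 0.746 to Jak1 and 0.789 to Jak2. Cish and Stat4 were the most opposed pair, with r of -0.911, while Cish and Socs2 had r of 0.623 and Socs1 had r of -0.757 to Cish and -0.761 to Socs2.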

How the data were processed

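Rectal RNA of 12 mice was sequenced, and the mice were grouped and numbered by the sample labels. The authors filtered reads with SOAPnuke, aligned them with Bowtie2 2.2.5 to mm9 and estimated expression with RSEM 1.2.12, and their deposited table gives each gene of each mouse an FPKM value, scaled for transcript length and library size. No source names this unit, which was read from the values and could also be TPM. The estimated read totals of the libraries hold only if it is FPKM. Labels and methods name different library kits and sequencers.

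Genes with a mean of at least 0.1 FPKM over the 12 mice were fitted as log2(FPKM + 0.1) with limma 3.58.1 (R 4.3.3) and a mean for each group, an empirical Bayes spread with a trend, and Benjamini-Hochberg adjustment over all 15315 tested genes at a limit of 0.05. Fold changes are on this scale and understate changes of low genes. Exact two-sided permutation tests were run for single genes, with p of at least 0.1 for 3 mice against 3. The unadjusted limit of 0.05 is the study's. Sequences, depth steps and figures were handled in Python 3.11.15 (SciPy 1.17.1, pandas 2.3.3, NumPy 2.4.6, matplotlib 3.10.9). The table holds FPKM and no read counts, so depth is an estimate from steps between low values, and read numbers cover counting error only. P-values measure the spread between mice.

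The members and lists were chosen with earlier results of these data known. The text names all 10 members, list genes past the adjusted limit, up to 4 of the most abundant genes of each list, and the 3 genes most like each member, apart from a few that are not reported here. Gene symbols were taken from the table, shared 50-base words and exon overlaps from GENCODE on GRCm38, and promoters from RefSeq. Between normal mice and normal mice receiving BBR, deviations of same-numbered mice had r of 0.29, 0.109 and 0.657 for numbers 1, 3 and 4. Normal mouse 1 with BBR mouse 3 had r of 0.366, and normal mouse 3 with BBR mouse 1 had r of 0.456. Equal numbers among 1 and 3 were thus no closer than unequal ones, and the numbers are not known to pair these mice. Over the series r was 0.5 on average between mice numbered 4, and among numbers 1 to 3 it was 0.21 for equal and 0.19 for different numbers. The settings varied were the pseudocount (1 or 0.01), the filter (a mean of 1, or no filter), the scaling (quantile normalization, or the median of each mouse set to 0), the fit (only the groups compared, no trend, a block for the replicate number or for the mice numbered 4), and the mice (without each in turn, or without the 4 numbered 4). The average of both colitis contrasts, the ratios, and quantile normalization together with a block for the mice numbered 4 were added after seeing the data.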

Additional observations from a re-analysis of the deposited data

How the results depend on the processing

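In colitis against normal mice, where 0 members passed the adjusted limit, 2 passed with quantile normalization and 2 with centring (Socs1 and Cish each time), 1 with the groups compared alone and 1 without the 4 mice numbered 4 (Cish), 3 when either the replicate number or the mice numbered 4 formed a block (Socs1, Socs2 and Cish), and 3 with quantile normalization and that block (Stat4, Socs1 and Cish). Of all 15315 tested genes, 258, 186, 488, 804, 734, 1412 and 1303 passed in these fits in the same order, against 165 in the main fit. With 1 mouse left out the count ran from 0 to 2, and it ran from 0 to 2 between the groups receiving BBR and from 0 to 4 in the average of both contrasts, which had 5 with quantile normalization and the block for the mice numbered 4. Over all genes, leaving out 1 mouse gave 11 to 818, 0 to 2255 and 319 to 5943 in these 3 contrasts, and the last fit gave 2772. The cause was not tested. In the fit with the replicate block the adjusted p-values were 0.0286, 0.0481 and 0.0355 for Socs1, Socs2 and Cish, it changed no other member call, and the numbers are not known to pair these mice.

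Of 1207 member values under an alternative, 1097 kept direction and side of the limit and 58 changed sign, 34 of these with both values within 1 SE of 0 and none of them for Socs2 or Cish. Many settings, such as the filter or the trend, cannot change a fold change, so for these only the side of the limit could change. Centring on the median turned Jak1, Jak2, Tyk2, Stat5a and Stat6 to 0.24, 0.26, 0.018, 0.19 and 0.13 in colitis against normal mice, Jak1 and Stat6 to 0.097 and 0.12 with BBR in colitis, Jak1, Jak2, Tyk2, Stat4, Stat5a and Stat6 to 0.17, 0.24, 0.029, 0.023, 0.29 and 0.29 between the groups receiving BBR, and Jak1, Jak2, Tyk2, Stat5a and Stat6 to 0.20, 0.25, 0.023, 0.24 and 0.21 in the average. Quantile normalization, with or without the block for the mice numbered 4, turned Jak1, Jak2 and Stat5a to 0.026, 0.080 and 0.25 in colitis against normal mice, Jak1 and Stat6 to 0.057 and 0.061 with BBR in colitis, Stat4, Stat5a and Stat6 to 0.068, 0.40 and 0.090 between the groups receiving BBR, and Jak2, Stat5a and Stat6 to 0.038, 0.32 and 0.016 in the average. The replicate block turned Jak2 to 0.011 in colitis against normal mice, and leaving out the 4 mice numbered 4 turned Tyk2, Stat5a and Stat6 to 0.026, 0.020 and 0.073 with BBR in normal mice. With 1 mouse left out, Jak1, Jak2 and Stat5a ran from -0.19 to 0.058, from -0.18 to 0.063 and from -0.44 to 0.070 in colitis against normal mice. With BBR in colitis, Jak2, Jak3, Stat5a, Stat6 and Socs1 ran from -0.049 to 0.17, from -0.56 to 0.16, from -0.55 to 0.037, from -0.11 to 0.065 and from -0.66 to 0.0031, the last without colitis mouse 4. With BBR in normal mice, Jak1, Stat4, Stat6 and Socs1 ran from -0.068 to 0.29, from -0.035 to 0.48, from -0.16 to 0.043 and from -0.038 to 0.24.

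With 3 mice a group and FPKM without read counts, Stat4 and Stat5a rested on an estimated 10.4 to 227 reads a mouse, and no limit of detection was computed.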
